A study of Arabidopsis thaliana with 8 samples.

Results

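The 100 brightest named genes of the Arabidopsis thaliana rosette were examined across 8 Affymetrix AtGenome1 arrays. A gene was counted as named where a probe set carried exactly 1 gene in the platform's annotation, and its brightest probe set stood for it. Genes were ranked by the mean signal of that probe set over all 8 arrays, and the first 100 of 3597 were kept. PSBW, PSAE-1, PRXR1, HPR and LHCB4.3 were left out before the ranking, and 4 of these 5 would have ranked among the 100. The signals chose the members, so the height of their signals is a description and not a result.

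The arrays carried RNA from the aerial parts of yda-2 and wild-type (WT) plants, 4 arrays each, taken at the rosette stage before bolting. All plants grew in soil under constant light at 22 °C, and the labels give no plant ages. The allele yda-2 is a mutation of YODA (YDA), whose protein sits at the head of a MAP kinase cascade and limits how many stomata the leaf epidermis makes. A single mutant allele was used, and YDA itself was not analysed here, so its level does not check the labels. The 4 replicates of each genotype came from separate growths and harvests, and arrays of the same replicate number are called a pair below. The comparison asks which transcripts differ between the genotypes, and the replicates allow the harvests to be compared as well.

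A rosette is mostly photosynthetic leaf tissue. Leaf cells hold very large amounts of light-harvesting proteins, which feed absorbed light to the photosystems, and of Calvin cycle enzymes, which fix carbon dioxide. Growing leaves also make many ribosomes, and mature leaf cells are largely vacuole, whose membrane carries a proton pump. Transcripts for these functions are commonly among the most abundant of a leaf, and many nuclear photosynthesis genes respond to light, sugars and stress.

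Signal is the brightness of a probe set and depends on its probes as well as on transcript number, so the ranking orders brightness and not molecules per cell. The label "most abundant" holds only among named genes. Of the 100 brightest probe sets on the arrays, 77 had no gene in the annotation, 2 had several, 5 belonged to left-out genes and 1 was a second probe set of a member, which leaves 15 that stood for members. The members ranked between 2 and 367 among all 8247 probe sets without controls. Probe sets whose names end in _s_at, which can bind several transcripts, made up 25.0% of the members and 8.66% of the other 3497 named genes. The lowest members were AT4G22310, AT4G32340 and AT1G54500, with mean signals of 3766, 3761 and 3694. Just outside lay AT4G15545, AT4G02620 and AT1G34030, with means of 3652, 3640 and 3638, so no gap separates rank 100 from the genes below it.

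The tissue label could be checked on few markers. Of the 17 rosette leaf markers looked for by name, only RCA matched a named probe set, and it ranked among the 5 brightest genes. OLEO3, a seed oil body protein, had a mean signal of 28.6 and ACT12, a pollen actin, 41.5, both below the minimum mean signal of 100 used for tests. STOMAGEN, a secreted peptide of the leaf that promotes stomata, had a mean signal of 382. No root marker looked for by name matched a named probe set.

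The arrays differed in range by replicate. The highest signal lay between 6226 and 10422 on the 4 arrays of replicates 3 and 4 and between 22519 and 33920 on those of replicates 1 and 2, while the median signal of an array lay between 125 and 190 throughout. Between 217 and 384 probe sets lay above 0.5 of their array's highest signal in replicates 3 and 4, against 51 to 91 in replicates 1 and 2. The 9 bacterial and phage hybridization controls, which are not plant RNA, were lower in replicates 3 and 4 in 9 of 9 cases, with a median log2 difference of -1.64 (range -1.87 to -1.02). They were also lower in yda-2 than in WT in 9 of 9 cases, by a mean log2 difference of -0.39 and in 4 of 4 pairs. The 3′ to 5′ signal ratio of ubiquitin, a sign of RNA integrity, was 1.57, 0.836, 0.781 and 0.715 on the yda-2 arrays of replicates 1 to 4, against 1.04, 0.529, 0.777 and 0.670 on the WT arrays. That of GAPDH was 1.63, 1.59, 0.797 and 1.04 on the yda-2 arrays, against 1.95, 0.937, 1.16 and 0.924 on the WT arrays, with means of 0.981 in replicates 3 and 4 and 1.53 in replicates 1 and 2. The part of these differences in the results below was not tested. With 4 arrays per genotype, precision is set by the number of arrays.

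The 100 genes together held 12.7%, 12.9%, 8.99% and 8.24% of the summed signal on the yda-2 arrays of replicates 1 to 4, against 12.8%, 12.2%, 10.7% and 8.89% on the WT arrays. Their median signal was 6664, 6961, 4450 and 4027 on the yda-2 arrays, against 6683, 5668, 5383 and 4662 on the WT arrays. The 4 arrays of replicates 3 and 4 were the lowest by both measures, and the genotypes overlapped. Within an array, 77 to 93 of the 100 genes stood among that array's 100 brightest named genes in yda-2, against 76 to 94 in WT.

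**Figure D1:**
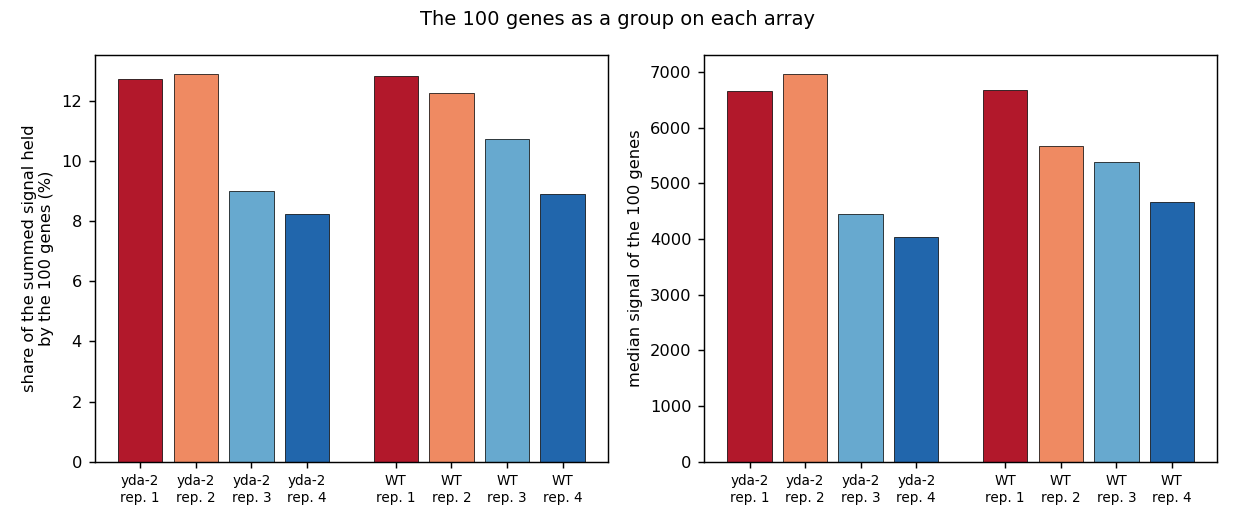
The left panel shows the percent of the summed signal that the 100 genes held on each array and the right panel their median signal, with 1 bar per array, yda-2 left of WT and colours by replicate. Bars of replicates 3 and 4 are the lowest in both panels, from 8.24% to 10.7% of the signal, against 12.2% to 12.9% in replicates 1 and 2.

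By role, 20 of the 100 genes encode cytosolic ribosomal proteins, 16 act in photosynthesis and chloroplast metabolism and 7 respond to cold or dehydration. A further 5 encode parts of the vacuolar proton pump. Defensins and lipid transfer proteins, calcium-binding proteins, cell wall proteins, mitochondrial energy proteins and vacuolar proteases have 3 members each. The other 37 have various roles or no role stated here. The 16 photosynthesis and chloroplast genes held 19.3% of the members' summed signal and the 20 ribosomal protein genes 19.0%, and their median mean signals were 6583 and 5972.

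Among the 20 brightest members, AT1G07590 ranked first with a mean signal of 15104, and it encodes a protein of the tetratricopeptide and pentatricopeptide repeat type. AT2G45180, of the lipid transfer and seed storage superfamily, followed with 14042. PSBY, a small subunit of photosystem II, had a mean of 13239. RCA, Rubisco activase, which clears inhibitors from the carbon-fixing enzyme, had 10783, and LHCB4.1, the CP29 antenna protein of photosystem II, had 10752. CCL, a transcript known to follow the circadian clock, had 10609, LHB1B2, a major light-harvesting protein, 10470 and SAMDC, which supplies polyamine synthesis, 10160. AT1G74470, geranylgeranyl reductase, which makes the tail of chlorophyll, had 10156 and PSAN, a subunit of photosystem I, 9833. These photosynthesis genes made up 6 of the 10 brightest.

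The next 10 began with KIN2, a cold-induced protein, at 9455, AT1G23130, a major latex protein-like gene, at 9386, and ECS1, a cell wall protein, at 9000. AT4G34670, a ribosomal protein of the small subunit, had 8667, AT1G54410, a small dehydrin, 8484, and AT2G26500, a small subunit of the cytochrome complex that links the photosystems, 7995. DI19, a drought-induced zinc finger protein, had 7803 and AT2G27720, an acidic ribosomal stalk protein, 7796. AT4G17390, a ribosomal protein of the large subunit, had 7790 and STZ, a zinc finger repressor induced by salt and cold, 7592.

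**Figure D2:**
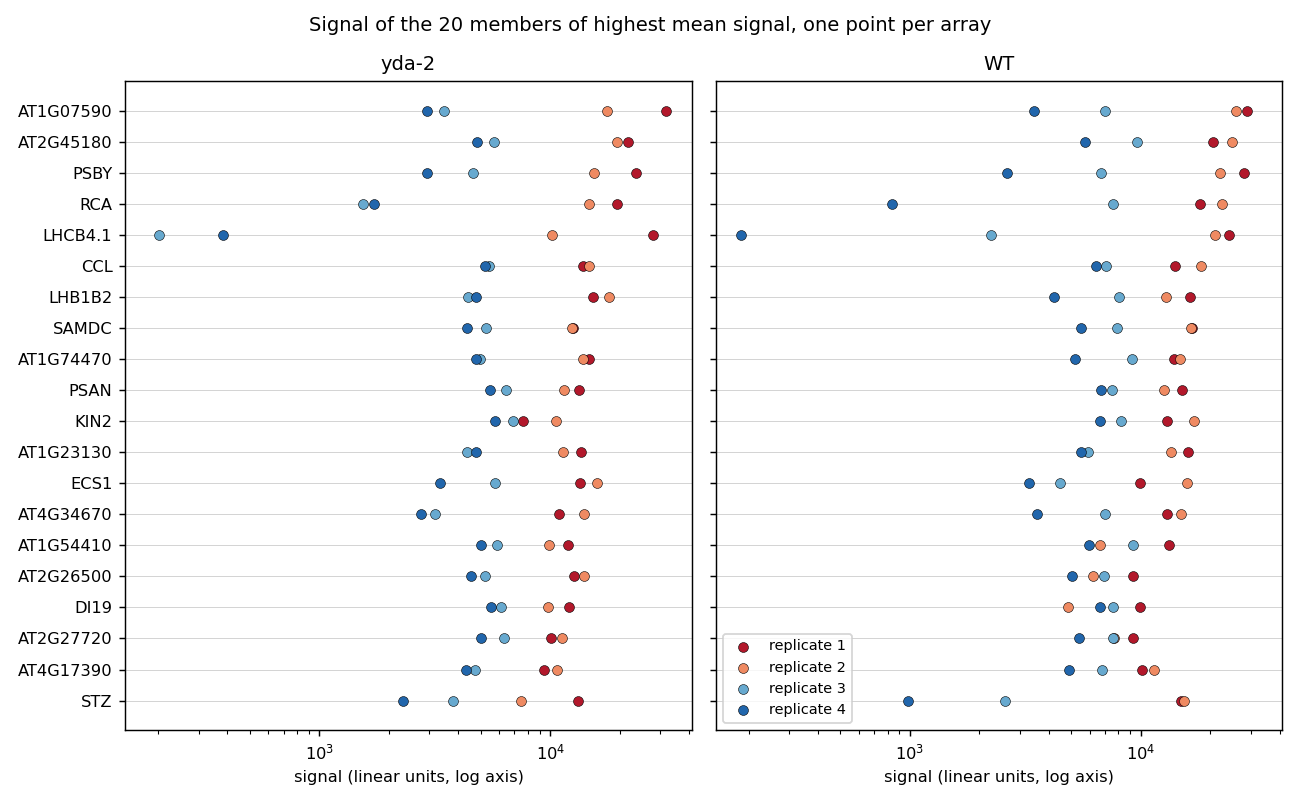
Each point is the signal of 1 of the 20 brightest members on 1 array, on a log axis, with yda-2 in the left panel, WT in the right and colours by replicate. LHCB4.1 spans the widest range, from 203 to 27755 in yda-2 and from 186 to 24004 in WT, while AT2G27720 lies between 5009 and 11205 in yda-2 and between 5376 and 9205 in WT.

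The members varied unequally over the 8 arrays. The coefficient of variation of the signal ran from 10.04% to 110% with a median of 26.4%. The 5 steadiest were AT5G11770, a subunit of mitochondrial complex I, at 10.04%, the ribosomal protein genes AT2G41840, AT2G17360 and AT1G67430 at 10.2%, 11.8% and 13.6%, and OTC, an enzyme of arginine synthesis, at 14.1%. AT5G11770 had 3870, 3726, 3205 and 4011 in yda-2 replicates 1 to 4, against 3935, 4039, 3944 and 4635 in WT. AT2G41840 had 6007, 6670, 5898 and 5224 in yda-2, against 6161, 5494, 7099 and 5704 in WT, so the genotypes and harvests overlapped.

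The 5 most variable members were LHCB4.1 at 110%, AT4G01150 at 96.0%, RCA at 82.6%, AT1G07590 at 81.9% and STZ at 80.1%. Across arrays, the highest LHCB4.1 signal was 149 times the lowest. For AT4G01150, which encodes CURT1A, a protein that curves the thylakoid membrane, the ratio was 41.5, and for RCA it was 26.8. These 3 genes kept no steady place: LHCB4.1 ranked between 2 and 1363 among named genes, AT4G01150 between 14 and 1049 and RCA between 3 and 493. Being among the 100 rested on replicates 1 and 2 for both LHCB4.1 and AT4G01150, which were outside the 100 brightest on all 4 arrays of replicates 3 and 4. PSAN, by contrast, ranked between 1 and 17 on every array.

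**Figure D3:**
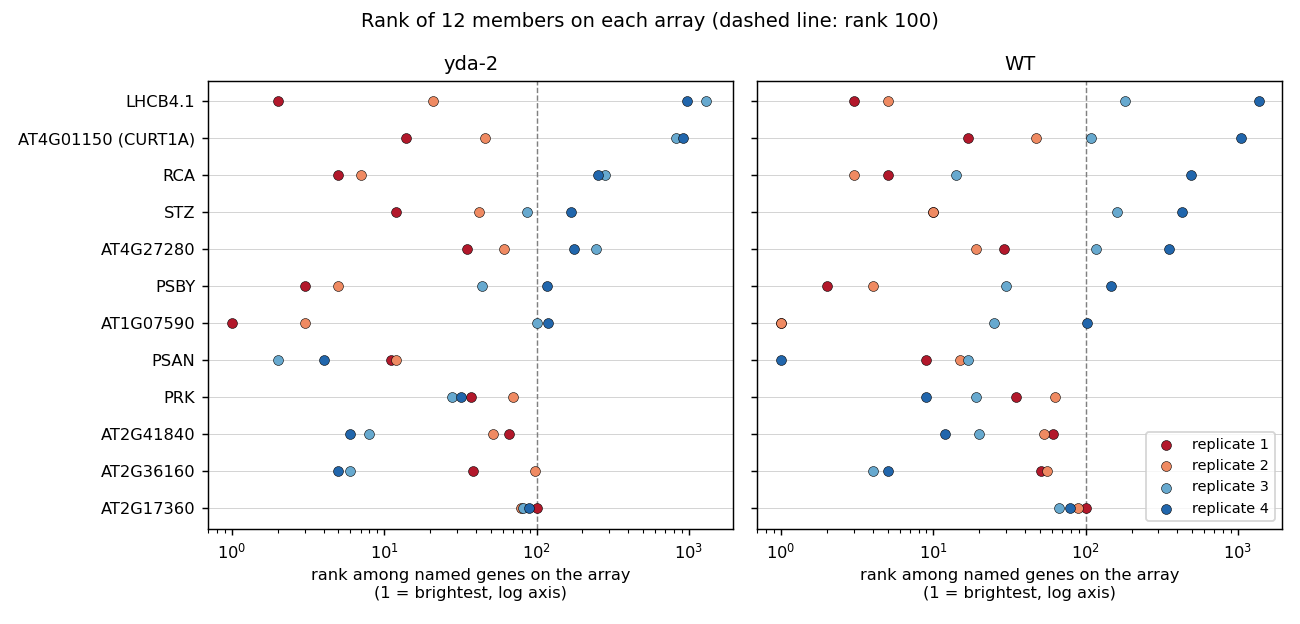
Each point gives the rank of 1 of 12 members among the named genes of 1 array, on a log axis on which 1 is the brightest, with yda-2 in the left panel, WT in the right and a dashed line at rank 100. LHCB4.1 reaches rank 1304 in yda-2 and 1363 in WT, AT4G01150 reaches 921 and 1049, and PSAN stays between 1 and 17.

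The members were mostly dimmer in replicates 3 and 4, in both genotypes. The difference between the log2 means of replicates 3 and 4 and of replicates 1 and 2 was below 0 for 86 of the 100 genes, with a median of -0.52. Among all 4788 tested probe sets, 39.1% were lower and the median was 0.17. Splitting the 4 harvests into these pairs of replicates was done after the range of the arrays was seen. The direction is not independent of the choice of members, because a mean of linear signals weighs the arrays of wide range more. The direction of the list depended on scaling. After quantile normalization the median was 0.05 for the members, with 46 lower and 54 higher. It was 0.05 for all tested probe sets, of which 46.9% were lower. After median centring of each array it was -0.73 for the members, with 93 lower, and -0.05 for all, with 53.4% lower. Median centring moved the median of all probe sets by more than 0.1, as quantile normalization did.

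Of the members, 29 differed between the 4 harvests in limma's F test at an adjusted p of 0.05, and all 29 were lower in replicates 3 and 4. The F test asks for any difference among the 4 harvests. An adjusted p beside a harvest difference comes from it, and the contrast of replicates 3 and 4 with 1 and 2 was not itself tested. The share called among all tested probe sets was 8.29%, with 4.62% lower and 3.68% higher in replicates 3 and 4. After quantile normalization 13 members were called, 11 lower and 2 higher, where the shares among all probe sets were 3.99% in all, 2.46% lower and 1.52% higher. These counts include 7 members that lay outside the 100 brightest on all 4 arrays of replicates 3 and 4 and are members only through replicates 1 and 2: LHCB4.1, AT1G51400, AT4G01150, AT4G27280, AT4G32020, PGY2 and AT3G44400. They had to be lower in replicates 3 and 4, so their values are given below as a description, with no test. Of the other 93 members, 22 were called, and 7 after quantile normalization, of which AT1G07590, PSBY, STZ, SRC2 and LCR68 were lower. The choice of members by their mean bears on these 93 as well, so nothing is read from the shares. In replicates 3 and 4, RCA, STZ, LCR68 and AT1G70600 had mean signals of 2923, 2412, 2980 and 3428. These lay under the mean of 3694 of the last member, so these genes too had to be lower there. They are counted above but given below without a test. Several members that were not called, such as COR47 at 3491, also lay under that mean. On the signals as deposited, all 4 arrays of replicates 3 and 4 lay below all 4 of replicates 1 and 2 for 40 members, against 8.1% of all tested probe sets, and above them for 1 member, against 15.5%. The 40 include the 7 named above and RCA, STZ, LCR68, AT1G70600 and COR47, whose means had to be lower there. The choice of members bears on both counts, so nothing is read from them. In whole rosettes, fewer cells of a type and less RNA per cell cannot be told apart. The number of members called in the F test depended on single arrays: it was 4 without yda-2 replicate 1, 6 without WT replicate 1 and 18 without WT replicate 4.

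LHCB4.1 had 27755, 10213, 203 and 383 in yda-2 replicates 1 to 4, against 24004, 21024, 2248 and 186 in WT. Its lowest signals came from the 4 arrays of replicates 3 and 4 and the gap to replicates 1 and 2 was wide, while the genotypes overlapped. Its log2 difference was -5.44, and -4.64 after quantile normalization.

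PSBY had 23552, 15515, 4611 and 2941 in yda-2, against 27915, 22016, 6739 and 2622 in WT, with no overlap between replicates 3 and 4 and replicates 1 and 2, while the genotypes overlapped. It fell by 2.46 on the log2 scale in replicates 3 and 4 (F test, limma adjusted p = 0.0009), and the call held without any single array. AT1G51400, a small photosystem II protein, had 9278, 8433, 3213 and 2663 in yda-2, against 9526, 10088, 3459 and 3302 in WT, a difference of -1.56. LHB1B2 had 15347, 17888, 4421 and 4767 in yda-2, against 16313, 12807, 8030 and 4187 in WT, a log2 difference of -1.58 (adjusted p = 0.0147), or -0.54 after quantile normalization (adjusted p = 0.482). Its dimmer second probe set, with a mean of 531, ran the other way, at 0.93, so the gene's direction differs by probe set.

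PSAN had 13365, 11482, 6441 and 5504 in yda-2, against 15124, 12546, 7513 and 6692 in WT. Its log2 difference was -1.01 (adjusted p = 0.0179) on the deposited scale and 0.42 (adjusted p = 0.294) after quantile normalization, so the direction depends on scaling. PSB27, a photosystem II assembly factor, and AT2G26500 were not called, with differences of -0.53 and -0.91 and adjusted p of 0.226 and 0.140. All 5 tested genes of the lists for light harvesting and for photosystems were members. PSBY, LHB1B2 and PSAN passed the F test, PSB27 did not, and LHCB4.1 is given without a test.

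Carbon fixation genes had unlike harvest differences, which were not tested against each other. RCA had 19368, 14655, 1549 and 1717 in yda-2, against 18106, 22444, 7590 and 837 in WT, and within replicates 3 and 4 WT replicate 3 stood above the other 3 arrays. The difference was -3.17, and -2.43 after quantile normalization, given without a test. PRK, phosphoribulokinase, which regenerates the acceptor of carbon dioxide, had 8363, 5524, 5164 and 4541 in yda-2, against 7986, 4989, 7153 and 5834 in WT, with a difference of -0.23 (adjusted p = 0.232). SBPASE, another Calvin cycle enzyme, had a difference of 0.15 (adjusted p = 0.939). PRK and SBPASE were thus not called, and RCA was a member through replicates 1 and 2.

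AT4G01150, the thylakoid curvature protein, had 12638, 7195, 435 and 416 in yda-2, against 12586, 5894, 3526 and 304 in WT. The pattern across arrays resembled that of LHCB4.1, with WT replicate 3 between the bright and the dim arrays. Its difference was -3.73, and -3.38 after quantile normalization. AT1G74470, the chlorophyll and tocopherol pathway enzyme, had a difference of -1.30 (adjusted p = 0.0172), which was -0.10 after quantile normalization (adjusted p = 0.834). PORB, protochlorophyllide reductase, TRXF2, a chloroplast thioredoxin, and AT1G11860, the glycine decarboxylase T-protein of photorespiration, were not called, with differences of 0.19, 0.27 and 0.35. Of the 16 photosynthesis and chloroplast genes, 13 were inside the 100 on at least 1 array of replicates 3 and 4. Of these 13, 5 were called, RCA among them, and 1 after quantile normalization, where 8.29% and 3.99% of all tested probe sets were called. The median difference of the 16 was -0.96, which was 0.07 after quantile normalization and -1.17 after median centring.

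Of the 20 ribosomal protein genes, PGY2 is given without a test. Of the other 19, 4 were called, AT1G70600 among them, against 8.29% of all tested probe sets. These 4 were lower in replicates 3 and 4, and none of them was called after quantile normalization. That scaling called 2 other genes of the 19, both higher, against 3.99% of all tested probe sets. AT1G70600 had a difference of -1.06, given without a test. The median difference of the 20 was -0.52, with -0.73 after median centring and 0.16 after quantile normalization, so the group has no direction that holds under every scaling. AT4G34670 had 10879, 14048, 3176 and 2764 in yda-2, against 12925, 14964, 7029 and 3551 in WT, a difference of -1.76 (adjusted p = 0.00622), or -1.07 after quantile normalization (adjusted p = 0.0821). Its second probe set, of mean 4846, gave -0.38. PGY2, a protein of the large subunit linked to leaf shape, had 5523, 8971, 2154 and 1830 in yda-2, against 6063, 5829, 2848 and 2519 in WT, a difference of -1.48, and -1.33 after quantile normalization.

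AT2G36160 and AT2G41840, proteins of the small ribosomal subunit, were the 2 members called as higher after quantile normalization, with differences of 1.16 and 0.91 (adjusted p = 0.0256 and 0.0417). On the deposited scale the differences were 0.13 and -0.03 and neither was called. AT2G36160 had 8328, 4015, 5989 and 5410 in yda-2, against 6680, 5380, 8369 and 6329 in WT. Signals of replicates 3 and 4 overlapped with those of replicates 1 and 2, while its rank was 4 to 6 on the arrays of replicates 3 and 4 and 38 to 98 on those of replicates 1 and 2. The acidic stalk protein genes AT2G27720 and AT2G27710 are direct neighbours in the gene order of assembly TAIR10.1 and had differences of -0.65 and -0.52, with adjusted p of 0.122 and 0.222.

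**Figure D4:**
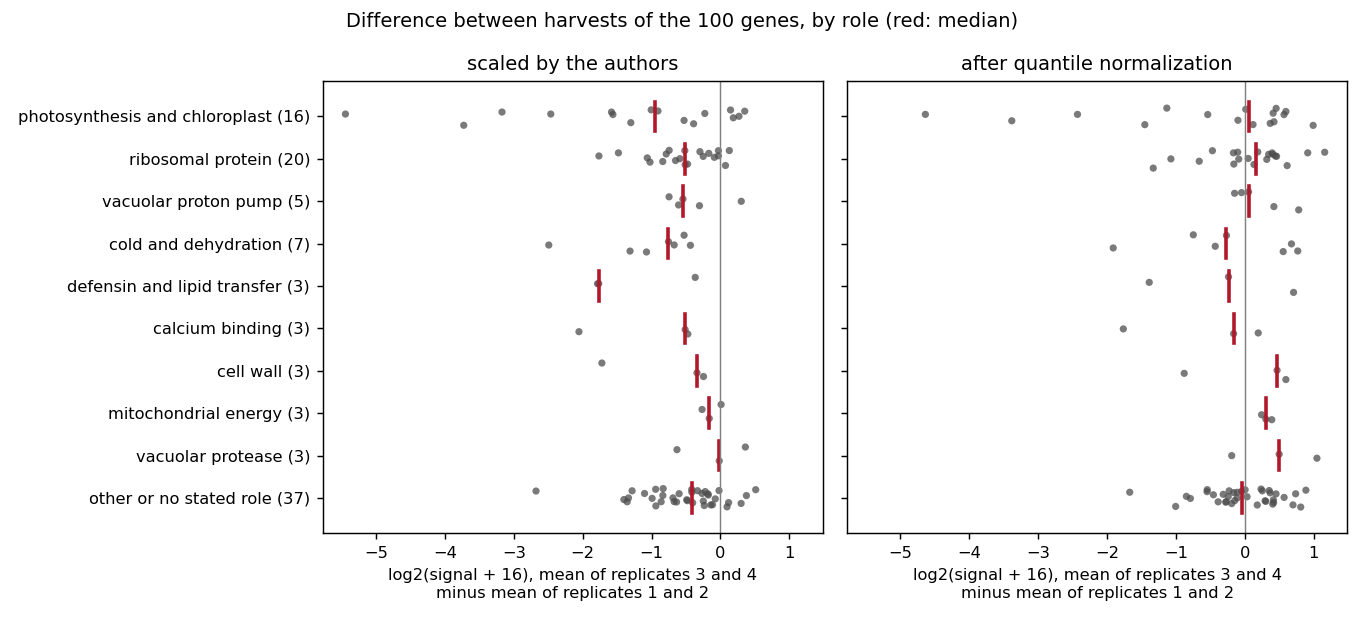
Each point is a member's log2(signal + 16) in replicates 3 and 4 minus that in replicates 1 and 2, grouped by role with the group size in parentheses and the median in red, on the signals as deposited at the left and after quantile normalization at the right. The photosynthesis and chloroplast median is -0.96 at the left and 0.07 at the right, that of ribosomal protein genes -0.52 and 0.16, and LHCB4.1 remains the lowest at -5.44 and -4.64.

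The member of highest mean signal, AT1G07590, had 31749, 17635, 3477 and 2937 in yda-2, against 28818, 25796, 6980 and 3438 in WT. It led the ranking on 3 arrays and fell by 2.68 on the log2 scale in replicates 3 and 4 (adjusted p = 0.00118), and the difference was -1.67 after quantile normalization (adjusted p = 0.0237). The 5 named genes whose log2 signals followed it most closely over the 8 arrays were AT1G67430, with a Spearman correlation of 0.976, and PSBY, PSAN, AT3G44400 and AT2G34930, each with 0.952. These correlations share the same arrays and their range, and are given as a description.

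AT2G45180 had 21819, 19415, 5706 and 4831 in yda-2, against 20441, 24800, 9596 and 5728 in WT. Its difference was -1.78 (adjusted p = 0.00341), and a second probe set gave -1.67, but after quantile normalization it was -0.24 (adjusted p = 0.316). LCR68, a plant defensin, had 8984, 11177, 2619 and 2320 in yda-2, against 8276, 11115, 4508 and 2473 in WT. Its difference was -1.77, given without a test. LCR69, with 2 genes between it and LCR68, had 9527, 7160, 6080 and 5192 in yda-2, against 9112, 6246, 8090 and 5488 in WT, with a difference of -0.37 (adjusted p = 0.179). The difference between these defensin genes was not tested.

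ECS1 had 13516, 15900, 5754 and 3341 in yda-2, against 9928, 15809, 4469 and 3286 in WT. Every array of replicates 3 and 4 was below every array of replicates 1 and 2, and the difference was -1.72 (adjusted p = 0.00213), or -0.88 after quantile normalization (adjusted p = 0.0538). The other cell wall members, AT2G43150, an extensin-like gene, and AT5G62350, a pectin methylesterase inhibitor-like gene, were not called, with differences of -0.25 and -0.34.

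Among the 7 cold and dehydration genes, 3 were called, and 2 after quantile normalization, against 8.29% and 3.99% of all tested probe sets. STZ is in both counts. This gene had 13211, 7480, 3776 and 2308 in yda-2, against 14989, 15410, 2579 and 986 in WT. Its difference was -2.49, given without a test, and its second probe set gave -1.30. SRC2, a membrane-associated protein induced by cold in soybean, had a difference of -1.31 (adjusted p = 0.00622), and AT2G23120, a late embryogenesis abundant protein, had -1.07 (adjusted p = 0.0215), which was -0.43 after quantile normalization (adjusted p = 0.207). KIN2 had 7644, 10609, 6898 and 5756 in yda-2, against 12931, 16912, 8216 and 6671 in WT, with a difference of -0.76 that was 0.68 after quantile normalization, and it was called under neither. It was the brightest member on yda-2 replicates 3 and 4. COR47, a dehydrin, had a difference of -0.53, given without a test.

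Of the calcium-binding genes, AT4G27280 had 8458, 6170, 1798 and 2254 in yda-2, against 8876, 10689, 3390 and 1180 in WT, a difference of -2.05, and -1.76 after quantile normalization. AT2G41090 and AT2G41410 were not called, with differences of -0.47 and -0.51, and the second probe set of AT2G41410 gave 0.35. AT4G32020, for which no role is stated here, had 5415, 6208, 2753 and 2559 in yda-2, against 7699, 9528, 3179 and 3101 in WT, a difference of -1.28.

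None of the 5 vacuolar proton pump genes was called between harvests, before or after quantile normalization. With 8.29% and 3.99% of all tested probe sets called, 5 genes can hold no call, so nothing is read from this. VHA-C3, AVA-P1, AVA-P2 and AT2G16510 encode near-identical proteolipid subunits that form the rotor of the pump, so their probe sets may bind each other's transcripts. Their differences were -0.75, -0.61, -0.30 and 0.30, and that of AT4G26710, a small subunit of the same pump, was -0.54. The vacuolar proteases AT4G16190, APA1 and GAMMA-VPE had -0.63, -0.02 and 0.36, and a second probe set of AT4G16190 gave 0.57. The mitochondrial genes AT4G37830, CYTC-1 and AT5G11770 had -0.27, -0.16 and 0.01. FTSZ2-1, which acts in chloroplast division, was the member with all arrays of replicates 3 and 4 above those of replicates 1 and 2, at 3571, 2495, 4574 and 3856 in yda-2, against 3742, 3108, 4815 and 5066 in WT. It lay outside the 100 on all 4 arrays of replicates 1 and 2, so this too is a description.

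No member differed between the genotypes at an adjusted p of 0.05. Among all tested probe sets, limma called 2, both higher in yda-2, or 0.0418%, and with the replicate as a block it called 9, all higher, or 0.188%, none of them a member. At an unadjusted p under 0.05 no member was higher or lower, where the shares of all tested probe sets were 2.46% higher and 0.752% lower. With the block, 0 members were higher at that p, against 4.51%, and 5 were lower, against 2.59%. These 5 were AOP3, SAMDC, KIN2, AT4G32020 and AT4G34670, with unadjusted p of 0.00956, 0.0180, 0.0204, 0.0357 and 0.0477, and the smallest adjusted p over the members was 0.469. The genotype differences of SAMDC and AT4G34670 were -0.43 and -0.46 by the probe sets chosen here, and -0.05 and 0.05 by their second probe sets.

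The log2 differences of the members, yda-2 minus WT, ran from -0.81 to 0.47 with a median of -0.08, with 64 below 0 and 36 above. For all tested probe sets the median was 0.02, with 47.0% below 0. After quantile normalization the members' median was -0.02, with 54 below and 46 above, against 50.7% below for all tested probe sets. On the deposited scale the members' median was positive without yda-2 replicate 3 (0.05), without yda-2 replicate 4 (0.09) or without WT replicate 1 (0.06). Within pairs 1 to 4 the members' median was 0.03, 0.13, -0.31 and -0.16, so pairs 1 and 2 and pairs 3 and 4 differed in sign. The median of all tested probe sets in these pairs was 0.06, -0.05, 0.01 and 0.06. The number of members lower in yda-2 was 43, 40, 84 and 76 in the 4 pairs, and no such count was made over all tested probe sets. The members were lower in 4 of 4 pairs for 15 genes, against 7.1% of all tested probe sets, and higher in 4 of 4 for 2 genes, ECS1 and AT2G16510, against 9.44%.

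**Figure D5:**
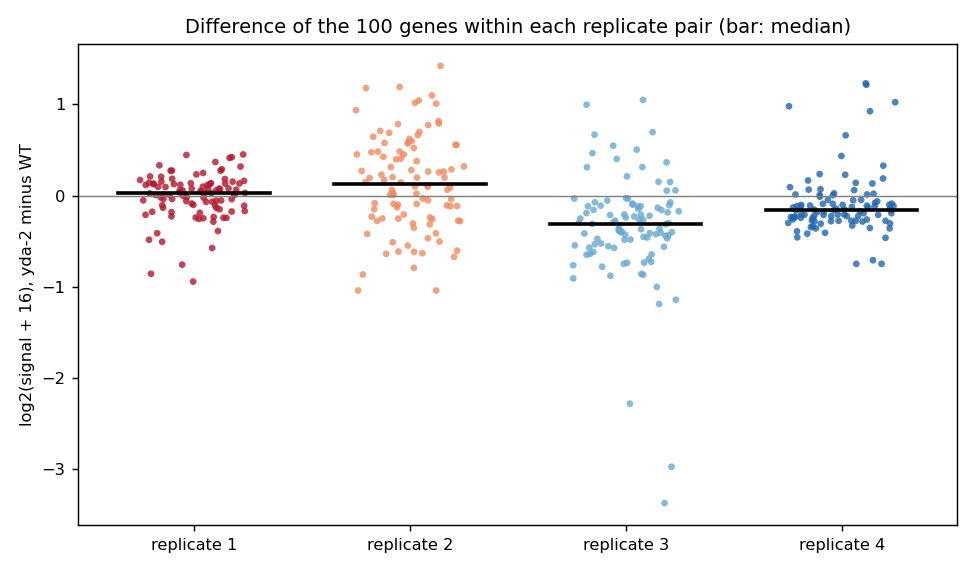
Each point is the log2(signal + 16) of a member on the yda-2 array minus that on the WT array of the same replicate, and the bar is the median of the 100 genes. The medians are 0.03, 0.13, -0.31 and -0.16 in replicates 1 to 4, on both sides of 0.

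The 6 members with the smallest p among those higher in yda-2 were CYTC-1, AT2G16510, AT2G41410, AT2G43530, AT1G51200 and AT2G26500, each with an adjusted p of 0.9999. CYTC-1, cytochrome c of the respiratory chain, had 4390, 6271, 5116 and 4908 in yda-2, against 4222, 3889, 5480 and 2084 in WT, a log2 difference of 0.47 (SE 0.32) that was 0.19 without WT replicate 4 and 0.78 after quantile normalization. AT2G16510, a proteolipid of the proton pump, had 4224, 6132, 5143 and 4700 in yda-2, against 3799, 2280, 4640 and 4636 in WT, a difference of 0.44 (SE 0.30) that was 0.20 without WT replicate 2. It was higher in yda-2 in 4 of 4 pairs, but by a narrow margin in replicate 4, and the groups overlapped. AT2G41410, AT2G43530, a trypsin inhibitor-like gene, AT1G51200, an A20/AN1 zinc finger gene, and AT2G26500 had differences of 0.23, 0.20, 0.26 and 0.27, each of which leaving out 1 array moved by more than 1.5 times.

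The 6 with the smallest p among those lower in yda-2 were AOP3, TRXF2, EIN3, KIN2, AT4G20150 and AT1G54500. AOP3, a dioxygenase that modifies glucosinolate side chains, had 4990, 6262, 3203 and 3317 in yda-2, against 9053, 9759, 5342 and 3582 in WT, a difference of -0.59 (SE 0.38) that was -0.38 without WT replicate 2. It was lower in yda-2 in 4 of 4 pairs, but the groups overlapped, and in both genotypes the arrays of replicates 3 and 4 were the dimmer ones (F test, limma adjusted p = 0.0447). With the replicate as a block the SE was 0.18 and the adjusted p was 0.469.

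EIN3, a transcription factor of ethylene signalling, was the member with no overlap between the genotypes, at 2509, 4598, 4478 and 3873 in yda-2, against 4838, 5310, 4655 and 4790 in WT. All yda-2 arrays lay below all WT arrays for 0.647% of the tested probe sets and above them for 1.73%. The margin was narrow, since the highest yda-2 value was 4598 and the lowest WT value 4655, and the log2 difference of -0.38 (SE 0.27) was -0.18 without yda-2 replicate 1. TRXF2 had 3708, 2666, 4417 and 3284 in yda-2, against 4432, 3809, 4520 and 5377 in WT, a difference of -0.38 (SE 0.26). KIN2 had a difference of -0.47 (SE 0.37), which was -0.11 after quantile normalization and -0.24 without WT replicate 2, and its second probe set gave -0.36. AT4G20150 and AT1G54500, a rubredoxin-like gene, had -0.30 and -0.25, and -0.18 and -0.12 after quantile normalization.

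For 88 of the 100 members a single named probe set was measured. In the other 12 the chosen probe set was 1.17 to 19.7 times brighter than the 13 further ones, with a median ratio of 1.61. SAMDC had 12564, 12405, 5290 and 4356 in yda-2, against 16727, 16540, 7883 and 5511 in WT by its brighter probe set. By its second probe set it had 6234, 5348, 5841 and 5873 in yda-2, against 5335, 6405, 5657 and 6831 in WT. The brighter set thus gave a harvest difference of -1.35 (adjusted p = 0.00593) and the second set 0.05, which leaves the harvest result of SAMDC dependent on the probe set.

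The role lists also hold tested genes that are not members. Of all tested probe sets, 0.0418% were called for genotype, 0.188% with the replicate block and 8.29% between harvests. At these shares a list of a few genes can hold no call, so nothing is read from the counts. Among the cytoskeleton and ubiquitin genes 0 of 5 were called in any comparison, and among the redox and detoxification genes 0 of 4, of which GSTF3, a glutathione transferase, is a member. WRKY53, a regulator of leaf ageing, and EXPA8, an expansin, differed between harvests, with log2 differences of -1.59 and -0.07 and adjusted p of 0.00649 and 0.0292. Of the 4 tested genes for cold, drought and clock, COR15B and LTI30 are not members, and 0 of the 4 were called. CHI, a chitinase-like gene, was higher in yda-2 with the replicate as a block. It had 775, 1106, 1037 and 1336 in yda-2, against 267, 325, 456 and 496 in WT, a log2 difference of 1.44 (limma adjusted p = 0.0333 with the block and 0.145 without), and all yda-2 arrays lay above all WT arrays. No probe set was called with the block after quantile normalization or median centring, or without pair 1, 3 or 4, so its call ends there.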

How the data were processed

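Per the labels, the authors hybridized labelled RNA to the arrays and brought the average signal of every array to 500. What they deposited is 1 linear signal intensity per probe set and array. The summary algorithm is not given in the sources used here, and no detection calls were used. The mean without the 2% of values at each end lay between 500.4 and 500.9, and the plain mean between 578 and 624 in replicates 3 and 4 and between 729 and 791 in replicates 1 and 2, so the scaling does not equalize the bright end.

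Values were used as log2(signal + 16), so changes of dim probe sets are understated. After leaving out 50 controls, 4788 probe sets whose mean signal reached 100 were tested, all 100 members among them. Genotypes were set against each other in limma 3.58.1 under R 4.3.3 (linear model and moderated test with intensity trend, two-sided), and harvests by limma's F test on the replicate terms beside the genotype. Benjamini-Hochberg adjustment ran over all tested probe sets, with a threshold of 0.05. The scripts were tested on simulated data. Figures were drawn with matplotlib 3.10.9.

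Groups and replicate numbers come from the titles, and the labels say that replicates were grown and harvested at different times. Deviations of same-numbered yda-2 and WT arrays correlated at 0.596, 0.296, 0.324 and 0.577 across probe sets. Arrays of different numbers were not set beside them, so these values cannot show that the numbers pair the arrays. The pairing by number is an assumption of the blocked fit, the harvest test and the counts over pairs.

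Named with values are the 20 brightest members, the 3 genes on each side of rank 100, the 6 smallest genotype p in each direction, the 6 smallest harvest p, the 5 smallest and largest coefficients of variation, list genes and the 5 genes most like the first. Other genes were named after their values were seen. The members and lists were chosen with earlier results of these data known, and roles were assigned from general knowledge after the members were seen. Names follow assembly TAIR10.1. Of the planned lists, those for photorespiration and aquaporins matched no named probe set by symbol or synonym. Such a match can miss genes, since AT1G11860, a photorespiration gene by role, was measured.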

Additional observations from a re-analysis of the deposited data

Results flagged for a closer look

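AT5G11770, a subunit of mitochondrial complex I and the steadiest of the members, had a signal of 4635 in WT replicate 4, apart from the other 3 WT arrays, which lay between 3935 and 4039. The gap to the nearest array was 0.851 of the range of the 4 WT arrays, above Dixon's critical value. It was the 1 group marked among 92 examined for 46 named members, and chance marks about 1 in 20.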

How the results depend on the processing

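No member was called for genotype in the fit reported or in any of its 24 alternatives. Over all tested probe sets, the 2 genotype calls became 0 with a pseudocount of 1, a mean signal of at least 200, quantile normalization, median centring, and the replicate block with quantile normalization or with median centring. The count was 1 with no filter, 11 with array weights and 9 with the replicate block. It ran from 0 to 28 when single arrays or pairs were left out, with 28 in the blocked fit without pair 2. The members' median genotype difference ran from -0.19 to 0.09 when single arrays were left out. The 397 harvest calls over all probe sets were 230 with no filter, 191 after quantile normalization, 138 with no trend and 883 with array weights, and 31 (without yda-2 replicate 1) to 1474 (without yda-2 replicate 2) when single arrays were left out. The members' 29 harvest calls were 13 after quantile normalization, 14 with no trend and 45 with array weights, and 4 to 41 (without the same arrays). Without WT replicate 1, 49 probe sets were called, and without WT replicate 2, 931. Of 288 values of the 12 members named for genotype, 3 changed sign: AT2G26500 was -0.00092 without yda-2 replicate 2 and -0.0376 in the blocked fit without pair 2 (range to 0.54 over arrays left out), and AT1G51200 was -0.10 without WT replicate 3 (range to 0.46). The replicate block changed no call among the members. The causes were not tested. Between 76 and 100 members stayed in the first 100 under 22 other rankings.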
